A study of Mus musculus with 2 samples.

Results

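The miR-183/96/182 cluster is a group of 3 microRNA (miRNA) genes, Mir183, Mir96 and Mir182, that are read as one transcript and are best known from sensory organs. The members were picked by gene symbol, with earlier results of these data known, and all 3 were present among the 2202 miRNA genes of the deposited count tables. The source was labelled as layer of hippocampus tissue of adult female 5xFAD/CAST mice, 8 to 10 months old, and RNA shorter than 30 nt was sequenced. The 5xFAD transgenes encode mutant human amyloid precursor protein and presenilin 1 under the mouse Thy1 promoter, which is active in neurons, and such mice form amyloid plaques. CAST is the short name of an inbred strain from wild Mus musculus castaneus. There was 1 group of 2 libraries, which the labels number as biological replicates 1 and 2 and list as separate biosamples under a shared donor entry. Whether these are separate animals is not stated, so n = 2 counts libraries, and non-transgenic, younger or male animals were not analysed here. The data therefore give the level of the cluster, its make-up and how far both libraries lay apart, and no effect of genotype.

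In mammals the cluster is abundant in photoreceptors, cochlear and vestibular hair cells, olfactory epithelium and sensory ganglia. Changes in the seed of miR-96 cause progressive hearing loss in mice and people. The seed is the stretch of bases 2 to 8 of the mature miRNA, which pairs with target mRNAs. In mouse hippocampus the cluster has been tied to long-term memory through protein phosphatase 1.

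The mature miRNAs of the 5′ arm carry nearly the same seed, and they are shown so that the seeds, in capitals, can be compared. All sequences are from RefSeq, build GRCm38.p6, and run 5′ to 3′ on the minus strand of chromosome 6.
miR-183-5p: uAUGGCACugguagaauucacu
miR-96-5p: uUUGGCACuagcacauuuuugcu
miR-182-5p: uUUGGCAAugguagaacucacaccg

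With positions counted from 1 at the 5′ end, the seed of miR-183 differs from that of miR-96 by the single change A2U. The seed of miR-96 differs from that of miR-182 by C8A, and miR-183 differs from miR-182 by both A2U and C8A. Bases 3 to 7, UGGCA, are shared by all 3. Beyond the seed the pair of miR-183 and miR-182 is more alike, with the run UGGUAGAA from position 9 in both and 18 of 22 bases identical without gaps (81.8%). Against miR-96, miR-183 was identical at 13 of 22 bases and miR-182 at 12 of 23.

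Among 1738 mature mouse miRNAs in the RefSeq table, which holds 968 of the 2202 counted genes by symbol, 1 outside the cluster had the seed of miR-96, and none had the seed of miR-183 or of miR-182. That miRNA is miR-1271-5p, of the gene Gm24195 on chromosome 13, whose seed is again in capitals.
miR-1271-5p: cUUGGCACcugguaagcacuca

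Gm24195 had 0 counts in replicate 1 and 0 counts in replicate 2, which allows up to 0.957 and 0.685 CPM (counts per 1000000 counts assigned to miRNA genes). Bases 2 to 7 of miR-1271-5p also equal those of miR-182, and no further relative of any member was found by these 6 bases.

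Both annotated mature miRNAs of each gene are marked in capitals in the hairpins that follow, since the gene counts add the 5′ and the 3′ arm and cannot tell them apart.
Mir183: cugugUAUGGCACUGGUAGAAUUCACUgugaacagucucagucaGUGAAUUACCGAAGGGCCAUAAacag
Mir96: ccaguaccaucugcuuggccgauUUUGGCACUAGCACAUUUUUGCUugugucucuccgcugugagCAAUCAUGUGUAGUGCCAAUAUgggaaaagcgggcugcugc
Mir182: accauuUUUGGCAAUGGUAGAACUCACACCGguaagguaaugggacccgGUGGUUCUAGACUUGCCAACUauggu

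Each of the 6 mature sequences occurred in 1 of the 1005 hairpins of the RefSeq table. No member therefore shares a mature miRNA with another gene of that table, and counted genes outside it were not searched. Such sharing bears on counting. Multimapping reads, 36.3% and 41.7% of all reads in replicates 1 and 2, stand in a line of their own outside the gene counts.

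In mm10 with the M21 annotation, Mir183 (ENSMUSG00000065619.2) lies on chromosome 6 from 30169668 to 30169737. Mir96 (ENSMUSG00000065586.1) lies from 30169446 to 30169551, with 116 bp between both genes. Mir182 (ENSMUSG00000076361.1) lies from 30165918 to 30165992, a further 3453 bp away. The cluster spans 3820 bp on the minus strand, so Mir183 is transcribed ahead of Mir96 and Mir182. No member overlaps another annotated gene, and none therefore lies in an annotated exon, intron or UTR. The nearest non-miRNA gene, the long non-coding gene Rncr4, starts 3156 bp upstream of Mir183 on the plus strand. The nearest protein-coding genes are Nrf1, a transcription factor gene of mitochondrial biogenesis, whose end is 12460 bp beyond Mir182, and Ube2h, a ubiquitin-conjugating enzyme gene, whose end is 41552 bp from Mir183.

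Of 9962659 reads in replicate 1 and 12761689 in replicate 2, 3135960 and 4377622 were counted for miRNA genes on their own strand, and these are the totals behind CPM. Short RNA reads cover the whole mature miRNA, so CPM is not divided by length. Over the 459 genes with at least 10 counts in either library, the libraries differed with a coefficient of variation of 0.385 between replicates (edgeR common dispersion). The listed markers of hippocampal and cortical neurons summed to 37353 and 35877 CPM in replicates 1 and 2, led by Mir132, Mir128-1 and Mir137. These close sums hold opposite shifts in the leading genes. Mir132 was higher in replicate 1, at 21687 against 13106 CPM. Mir128-1 (4545 against 9069 CPM) and Mir137 (4757 against 6655 CPM) were lower there. The classic members of this list, Mir124a-1, Mir124a-2 and Mir124a-3, which are copies of one miRNA, had at most 8 counts each. Reads shared between copies are multimapping and stand outside the gene counts, so these counts cannot give the level of that miRNA.

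All 3 genes were detected at low to middling levels, Mir183 highest and Mir96 lowest in both libraries, and each was higher in replicate 1 than in replicate 2, by 2.65-fold for Mir182 to 6.24-fold for Mir183 after TMM scaling. Summed, the cluster held 1152 counts in replicate 1 and 361 in replicate 2, or 367 and 82.5 CPM (225 ± 201 CPM, SD, n = 2). That was 0.0367% and 0.00825% of the miRNA counts. In tissue RNA, more cells with the cluster and more of it per cell cannot be told apart.

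Mir183, the first hairpin of the transcript, had 847 counts in replicate 1 and 199 in replicate 2. Its level was 270 CPM (exact 95% interval 252 to 289) and 45.5 CPM (39.4 to 52.2), which gave 158 ± 159 CPM (SD, n = 2). The SD was thus as large as the mean, and the gene ranked 149th of 2202 in replicate 1 and 244th in replicate 2.

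Mir182, the last hairpin, whose mature miRNA has been shown to repress the transcription factor Foxo1, had 282 counts in replicate 1 and 156 in replicate 2. Its level was 89.9 CPM (79.7 to 101) and 35.6 CPM (30.3 to 41.7), or 62.8 ± 38.4 CPM (SD, n = 2). Its ranks, 205th and 253rd, lay closer together than those of Mir183, and in replicate 2 it stood 9 places below Mir183. The means of Mir183 and Mir182 differed by less than the SD of Mir183, while within each library the order was the same.

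Mir96, the deafness gene, had 23 counts in replicate 1 and 6 in replicate 2. Its level was 7.33 CPM (4.65 to 11.0) and 1.37 CPM (0.503 to 2.98), or 4.35 ± 4.22 CPM (SD, n = 2). In replicate 2 its interval reached below the level that a count of 0 allows, 0.685 CPM, so its detection there was marginal. It passed the minimum of 10 counts through replicate 1 alone, and ranked 337th and 485th. Intervals and floors reflect counting error alone and treat each read as independent. Amplified reads are not independent molecules, so even this error may be understated.

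**Figure D1:**
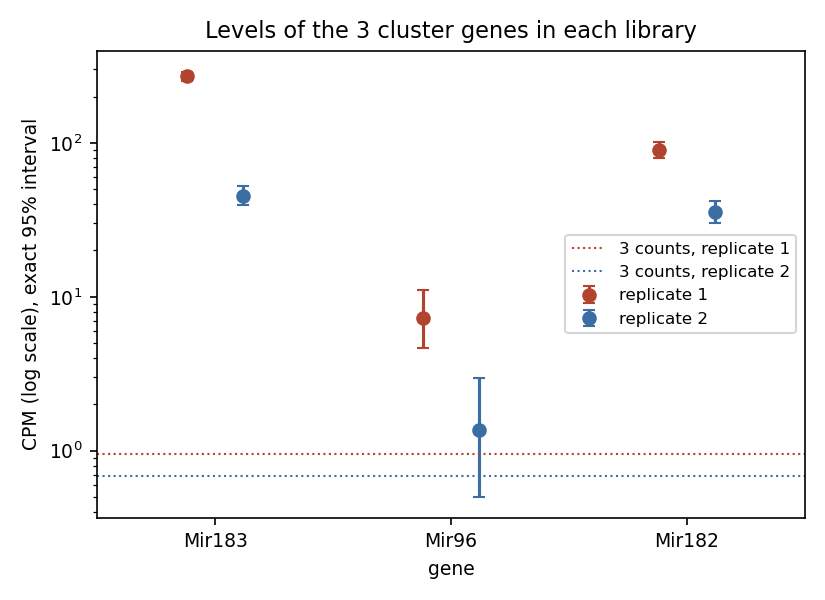
CPM of Mir183, Mir96 and Mir182 in replicate 1 (red) and replicate 2 (blue) on a log axis; bars are exact 95% intervals of counting error and dotted lines mark 3 counts in each library. Mir183 stands at 270 and 45.5 CPM, Mir96 at 7.33 and 1.37 CPM and Mir182 at 89.9 and 35.6 CPM, and in each gene the intervals of the libraries do not overlap.

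The make-up of the cluster was dominated by Mir183 and Mir182, with Mir96 near 2% of the cluster counts in both libraries. Mir183 supplied 73.5% of the cluster counts in replicate 1 (exact 95% interval 70.9% to 76.1%) and 55.1% in replicate 2 (49.8% to 60.3%). Mir182 supplied 24.5% (22.0% to 27.1%) and 43.2% (38.0% to 48.5%). Mir96 supplied 2.00% (1.27% to 2.98%) and 1.66% (0.612% to 3.58%). The share of Mir96 therefore overlapped between the libraries, and those of Mir183 and Mir182 did not.

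Expressed as a ratio of reads, Mir183 over Mir182 was 3.0 in replicate 1 (exact 95% interval 2.62 to 3.45) and 1.28 in replicate 2 (1.03 to 1.58), or 2.14 ± 1.22 (SD, n = 2). Both intervals lay above 1 and apart from each other, with the ratio 2.35 times as large in replicate 1. Mir183 over Mir96 was 36.8 (24.4 to 58.4) and 33.2 (15.0 to 91.5), with an SD of 2.59 between replicates. Mir182 over Mir96 was 12.3 (8.01 to 19.7) and 26.0 (11.7 to 71.9), or 19.1 ± 9.72. With 6 counts of Mir96 in replicate 2, the intervals of both ratios to Mir96 overlapped between the libraries. Adapters join to some miRNA sequences more readily than to others, so these are ratios of reads and may not be those of molecules.

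**Figure D2:**
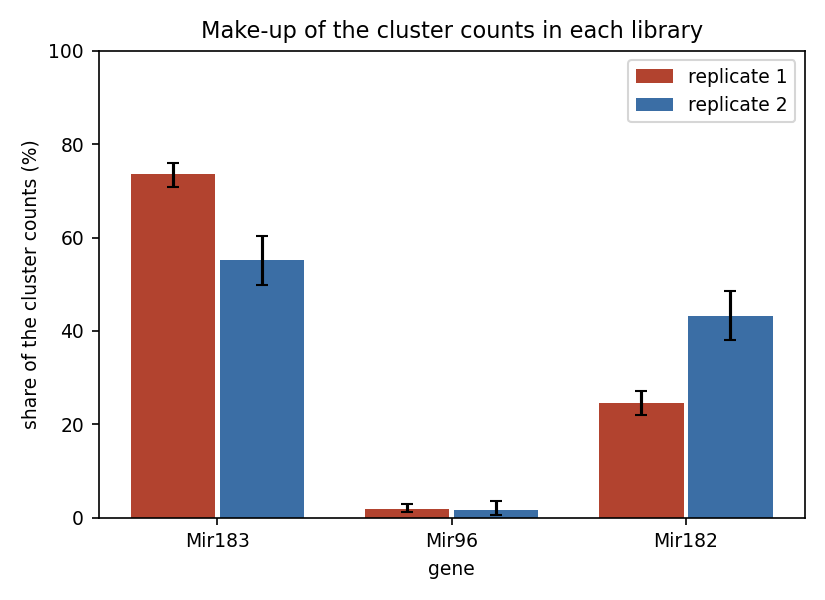
Share of the cluster counts (%) held by each gene in replicate 1 (red) and replicate 2 (blue), with exact 95% intervals. Mir183 holds 73.5% and 55.1%, Mir182 24.5% and 43.2%, and Mir96 2.00% and 1.66%; the intervals overlap for Mir96 alone.

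Set against all tested miRNA genes, Mir183 was among those with the widest excess in replicate 1, and Mir182 lay just under the 95th percentile. Each ratio divides replicate 1 by replicate 2 after scaling by TMM, with 0.5 CPM added to both levels. The log2 ratio was 2.63 for Mir183 (exact 95% interval without the added 0.5 CPM, 2.42 to 2.87), 2.12 for Mir96 (1.15 to 4.08) and 1.39 for Mir182 (1.12 to 1.70). Over the 459 tested genes the median was -0.03, with 5th and 95th percentiles of -1.58 and 1.42.

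Each gene's pair of counts was tested against counting error with an exact two-sided binomial test and Benjamini-Hochberg adjustment over all 459 genes. This test compares these libraries and cannot stand for animals. It called all 3 members higher in replicate 1, at an adjusted p of 1.03e-156 for Mir183, 7.9e-05 for Mir96 and 5.93e-23 for Mir182 (exact binomial test). The same call, higher in replicate 1, was made for 29.0% of tested genes, and 27.9% were called lower in replicate 1. A log2 ratio of at least 1 was reached by all 3 members and by 8.50% of tested genes. Mir96 was tested only because of its count in replicate 1, so its ratio had to be high. With 5 CPM added in place of 0.5, its log2 ratio was 0.98.

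Of the 456 other tested genes, 4 had a ratio at least as high as Mir183 (0.877%) and 23 at least as high as Mir182 (5.04%). Low counts widen ratios, so genes within 2-fold of the mean level of Mir183 or of Mir182 were also set beside that member. Of 73 such genes 2 reached the ratio of Mir183, and of 76 genes 3 reached that of Mir182. These comparisons are not given for Mir96, whose ratio had to be high.

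**Figure D3:**
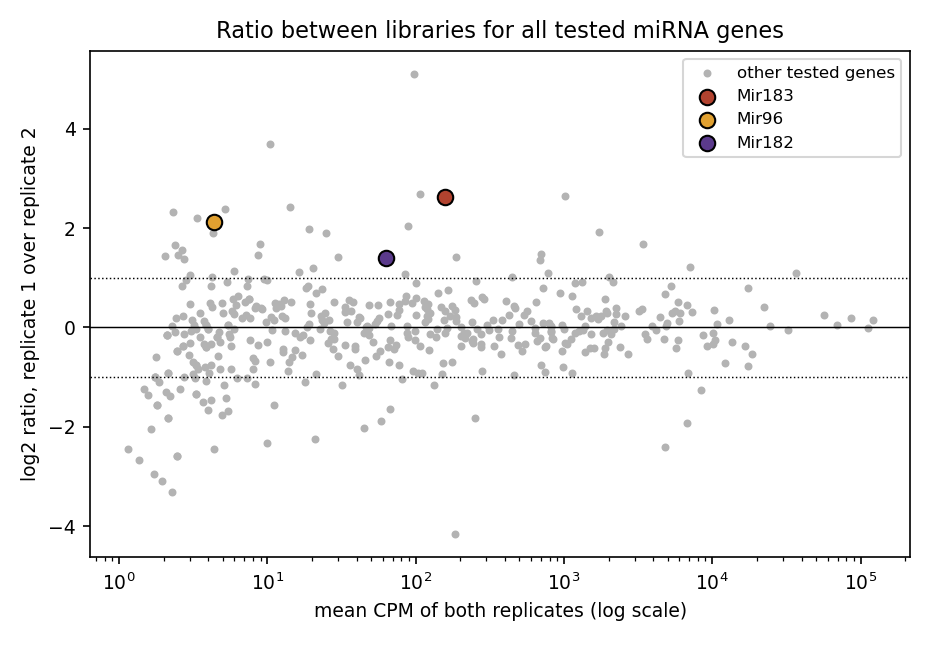
Log2 ratio of replicate 1 over replicate 2 against mean CPM (log axis) for the 459 tested miRNA genes; grey points are other genes, large points the members, and dotted lines mark log2 ratios of -1 and 1. Mir183 at 2.63 and Mir182 at 1.39 lie above the upper dotted line, which 8.50% of tested genes reach. Mir96 also lies above it, at 2.12. Mir96 was tested only because of its count in replicate 1, so its ratio had to be high and is not set beside that share.

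Within 2000000 bp of the cluster on chromosome 6 there were 8 other miRNA genes, and the 4 with at least 10 counts had log2 ratios of 0.03 or lower. The remaining 4 had at most 1 count. Mir335, in the imprinted gene Mest, lies 572 kb away and had 1591 CPM in replicate 1 and 2216 CPM in replicate 2, a log2 ratio of -0.41. Mir29a, a regulator of collagen and of the beta-secretase gene Bace1, lies 893 kb away and had a log2 ratio of -0.54. Mir29b-1, beside Mir29a, had 67.6 and 69.4 CPM, and Mir129-1, on the other side, had 85.5 and 87.9 CPM, with log2 ratios of 0.03 for each. Mir29b-1 and Mir129-1 have levels like those of Mir182, and their libraries differed by far less than those of Mir182. Both are named as copies, like Mir135a-2, Mir128-1, Mir7-2 and Mir26a-1, and reads shared with another copy would be missing from such genes.

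Clusters of miRNA genes, here neighbours within 10000 bp on one strand, gave a further measure. In 42 clusters at least 2 genes were tested, and the summed miR-183/96/182 counts ranked 3rd by ratio, with a log2 ratio of 2.22. The clusters nearest to it were Mir34c with Mir34b, at 2.60, Mir200c with Mir141, at 2.78, and Mir429 with Mir200b and Mir200a, at 1.44. The median log2 ratio of the summed counts over the 42 clusters was 0.12.

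Genes of one cluster often differed in ratio. Between the highest and lowest member of the miR-183/96/182 cluster, Mir183 and Mir182, the log2 ratios lay 1.23 apart. The median of this distance over the 42 clusters was 0.70, and in 11 clusters it was wider. Such a distance tends to grow with the number of tested genes, which was 3 here and from 2 to 36 over the 42 clusters.

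**Figure D4:**
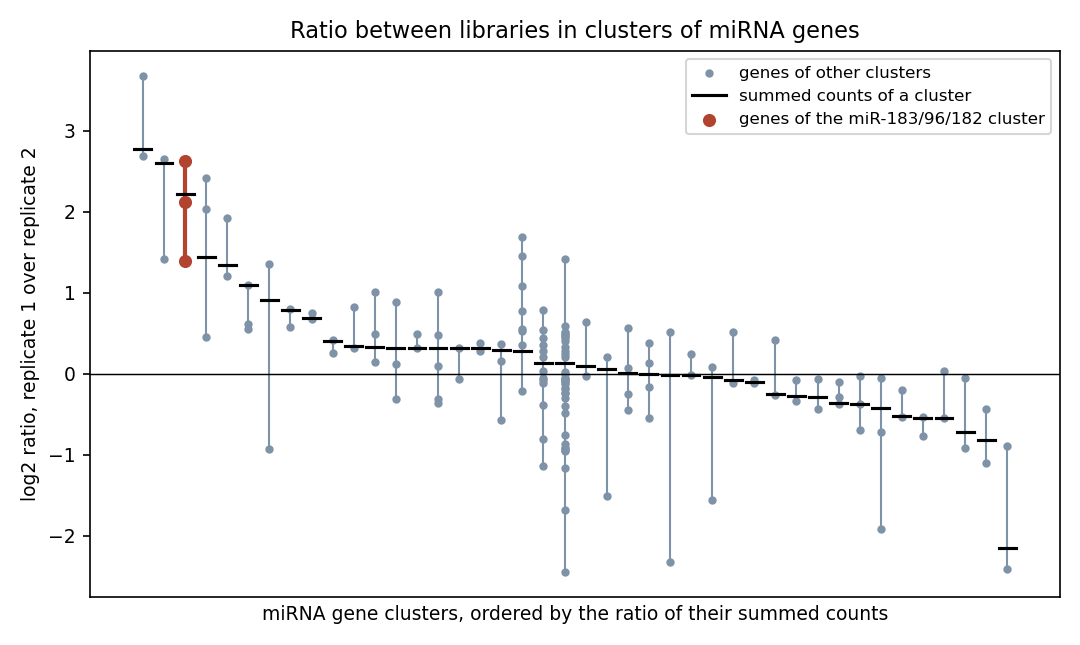
Log2 ratio of replicate 1 over replicate 2 for the tested genes (points, joined by a line) and the summed counts (black bars) of 42 clusters of miRNA genes, ordered by the ratio of their summed counts. The miR-183/96/182 cluster (red) is 3rd from the left at 2.22, and its genes range over 1.23.

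By the rule of nearest ratio, 6 genes with at least 100 counts over both libraries were most like the summed cluster. With 2 libraries this likeness rests on a single ratio per gene. Mir429, of the miR-200 family that holds epithelial identity by repressing Zeb1 and Zeb2, had 141 CPM in replicate 1 and 35.6 CPM in replicate 2, a log2 ratio of 2.04. Mir135b had a log2 ratio of 1.98 and Mir135a-2, a gene of the same family, 1.91. Mir222, which represses the cell cycle inhibitor gene Cdkn1b, had 2716 and 749 CPM, a log2 ratio of 1.93. Mir34c, abundant in ciliated cells, had 1747 and 292 CPM, a log2 ratio of 2.65. Mir200c had 185 and 29.7 CPM, a log2 ratio of 2.69. Of the 299 other genes with that many counts, 3 had a ratio at least as high as the cluster, namely Mir26a-1, Mir200c and Mir34c.

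Listed markers of epithelium and of choroid plexus and ependyma were, in sum, also higher in replicate 1. The 7 listed epithelial genes together had 563 CPM in replicate 1, against 193 CPM in replicate 2. All 6 that were tested were called higher in replicate 1 by the exact binomial test, beside 29.0% of all tested genes, with a median log2 ratio of 2.23 and a range from 0.46 to 3.68. They were led by Mir200c, Mir203 and Mir429. Mir141, at the top of the range, had 62 and 5 counts and was tested only because of its count in replicate 1. Mir205, a marker of stratified epithelium, was not tested, with 4 and 8 counts and a log2 ratio of -0.34. The 7 genes of choroid plexus and ciliated ependyma together had 3072 CPM in replicate 1, against 1165 CPM in replicate 2. Of 5 tested, 4 were called higher in replicate 1 and none lower, with a median log2 ratio of 0.70, beside the same 29.0%. Mir34c led them, with 1747 CPM in replicate 1 and 292 CPM in replicate 2, Mir204, a miRNA of choroid plexus and retinal pigment epithelium, had 1148 and 744 CPM, Mir211 had 79.7 and 69.9 CPM, and Mir449b was at 0 in both libraries. The part of these cell types in the cluster's ratio was not tested.

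Lists of other sources had summed levels closer together or lower in replicate 1. The 4 neuroendocrine genes had 2944 CPM in replicate 1 and 2393 CPM in replicate 2 in all, led by Mir7b, Mir375 and Mir7-2. Of the 4, 2 were called higher in replicate 1, beside 29.0% of all tested genes. The 5 Hox-cluster genes of hindbrain and spinal cord had 141 CPM in replicate 1 and 505 CPM in replicate 2 in all. Both tested genes, Mir10a and Mir10b, were called lower in replicate 1, beside 27.9% of all tested genes, at log2 ratios of -1.82 and -1.64. Of 12 tested neuronal genes 4 were called higher and 4 lower in replicate 1 (33.3% each), with a median log2 ratio of 0.00. These shares were close to the 29.0% and 27.9% of all tested genes. Mir9-2, called higher, had 10 and 4 counts and was tested only because of its count in replicate 1. Red blood cell genes had 70.2 CPM in replicate 1 and 78.4 CPM in replicate 2 in all. Of the 3, 1 was called in each direction, beside the same 29.0% and 27.9%. Mir144, called lower, had 9 and 75 counts and was tested only because of its count in replicate 2.

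**Figure D5:**
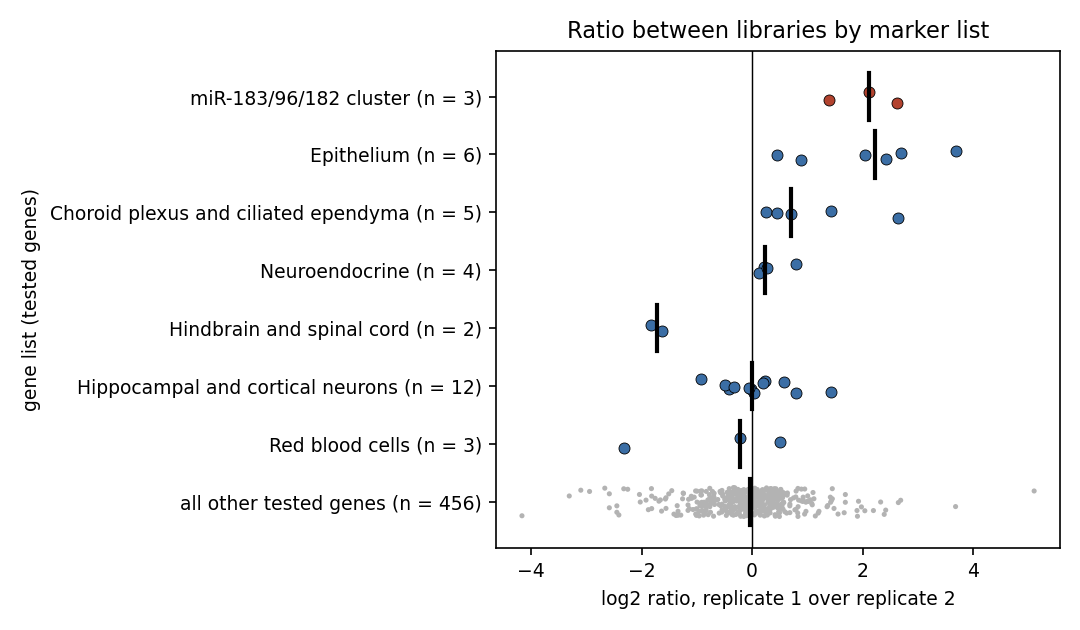
Log2 ratio of replicate 1 over replicate 2 for the tested genes of the miR-183/96/182 cluster (red), of 6 marker lists (blue) and for all other tested genes (grey); vertical bars are medians. The cluster's genes lie from 1.39 to 2.63 and the epithelial genes from 0.46 to 3.68. The neuronal genes lie from -0.93 to 1.44, with a median of 0.00. Mir96, Mir141 and Mir9-2 passed the minimum of 10 counts through replicate 1 alone. Mir141 is at the top of the epithelial range and Mir9-2 at the top of the neuronal range.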

How the data were processed

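Per the notes deposited with the tables, reads were assigned to mm10 and the M21 annotation; which aligner, counter and trimming were used is not given in these sources. The authors deposited raw read counts per miRNA gene for each library, without normalization, in 3 columns: regardless of strand, sense, and the other strand, as read from their values. Sense counts were used, and 4 summary lines (unmapped, multimapping, unassigned, ambiguous) were left out: they held 68.5% and 65.7% of reads in replicates 1 and 2. All 2202 identifiers matched M21.

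CPM, exact Clopper-Pearson 95% intervals and the exact binomial test were computed in Python 3.11.15 with scipy 1.17.1. TMM factors (0.976 and 1.02) and the dispersion came from edgeR 4.0.16. The floor of a count of 0 is 3 counts. Hairpin energies came from RNAfold (ViennaRNA 2.7.2). The scripts were tested on simulated data. With 1 group, conditions were not compared. Since the replicates share a donor entry, their spread may be partly technical. DESeq2 1.42.0 size factors were an alternative.

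The members, marker lists and naming rule were chosen with earlier results of these data known. Named genes are the members, seed relatives, chromosome 6 neighbours within 2000000 bp, the 6 genes and 3 clusters nearest in ratio, and up to 3 leading genes of each list; Mir205, Mir449b, Mir26a-1 and the Mir124a copies were added after their values were seen.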

Additional observations from a re-analysis of the deposited data

How the results depend on the processing

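Of 52 values recomputed under other scalings, strand columns, pseudocounts and count minimums, 50 were classed as unchanged and none reversed. For levels this rule is weak, because any shift within the wide spread of both replicates passed. Over all reads, Mir183 fell from 158 to 50.3 CPM and the summed cluster from 225 to 72.0 CPM, and both passed. The added CPM does not enter the adjusted p, so calls could not change with it. Counts of called genes were among the 52 and have neither a direction nor an error here. With CPM over all reads in place of miRNA counts, and without the TMM factor, the log2 ratio of the summed cluster was 2.01, against 2.22, and it was 2.15 over miRNA counts without that factor. Over all reads Mir182 averaged 20.3 CPM, against 62.8. The log2 ratio ranged from 2.41 to 2.65 for Mir183 and from 1.18 to 1.42 for Mir182 over the alternatives. For Mir96 it ranged from 0.98, with 5 CPM added, to 2.49, with 0 added, and was 1.53 over all reads. The highest adjusted p of a member was 0.00028 (Mir96, exact binomial test). Mir96 could not be tested with at least 10 counts in each library. With 1 replicate left out, the summed cluster was 82.5 CPM without replicate 1 and 367 CPM without replicate 2. Depth limits Mir96 most, at 23 and 6 counts.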

Other observations

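The predicted folding energies of the hairpins lay on both sides of the median of annotated hairpins. By RNAfold the minimum free energy was -26.2 kcal/mol for Mir183, -47.9 for Mir96 and -29.9 for Mir182, or -0.374, -0.452 and -0.399 per base, against a median of -0.406 over 1005 annotated mouse hairpins. Mir96, the gene with the fewest counts in both libraries, thus had the most stable predicted hairpin of the 3, in total and per base. Its annotated hairpin is also the longest, at 106 bases, beside 70 for Mir183 and 75 for Mir182.

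On the strand opposite to the cluster almost no reads were counted. Mir183 had 0 counts there in replicate 1 and 2 in replicate 2, Mir182 had 1 and 0, and Mir96 had 0 in both, each within the 3 counts that a count of 0 allows.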
